A study of Mus musculus with 8 samples.

Results

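The genes described here are subunits of Polycomb repressive complex 1 (PRC1) outside the form built on PCGF6, namely *Pcgf1*, *Pcgf2*, *Pcgf3*, *Pcgf5*, *Bmi1*, *Kdm2b*, *Bcor*, *Cbx2*, *Cbx7* and *Phc1*. They were chosen by name, and an array probe was assigned to a gene when its RefSeq accession belonged to that symbol. All 10 genes were found, on 14 of the 39429 probes, among 19751 named genes in all. The cells were male VV3 mouse ESCs, which carry a *Vasa*::Venus reporter transgene and were grown with serum and LIF on STO feeder fibroblasts inactivated by mitomycin C. In *L3mbtl2*-KD ESCs (4 samples) an siRNA directed at *L3mbtl2* had been transfected, and the methods name a single such siRNA. Control ESCs (4 samples) received the non-silencing AllStars siRNA. *Vasa*-positive cells were purified by FACS for the *L3mbtl2*-KD samples, and the sources used here do not state whether the control cells of these arrays were sorted too. Samples are biological replicates according to the methods, each read on 1 array of a one-colour Agilent mouse design. The comparison asks how the RNA of the other PRC1 subunits stood in cells depleted of a subunit of the PCGF6 complex.

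PRC1 is a group of chromatin complexes in which RING1A or RING1B, the E3 ligases that place ubiquitin on histone H2A, bind a PCGF protein. The PCGF protein sets which partners join. Canonical complexes hold PCGF2 (MEL18) or BMI1 (PCGF4) with a CBX protein that reads H3K27me3 and a PHC protein that can oligomerise, and variant complexes hold RYBP or YAF2 in place of CBX. PCGF1 assembles with BCOR and the CpG-binding demethylase KDM2B, while PCGF3 and PCGF5 form further variant complexes with casein kinase 2 and AUTS2 or its relatives. L3MBTL2 belongs to the variant complex of PCGF6, together with MGA, MAX and E2F6. In ESCs, CBX7 is known as the main CBX subunit, and the PCGF1 complex is known for its binding to CpG islands.

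Values are log2 intensities of a probe minus the 75th percentile of its array, called log2 intensity from here on, and a change is the mean of *L3mbtl2*-KD ESCs minus that of control ESCs. The siRNA target was checked first. *L3mbtl2* (NM_145993) was at -1.45, -1.26, -1.58 and -1.73 in *L3mbtl2*-KD replicates 1 to 4 and at 0.27, -0.18, -0.21 and -0.31 in control replicates 1 to 4. All *L3mbtl2*-KD arrays lay below all control arrays, with a log2 fold change of -1.40 (standard error 0.15, limma adjusted p = 0.00094), or 37.9% of the control intensity. A two-sided exact permutation test gave p = 0.0286, the smallest that 4 against 4 samples allow.

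None of the 10 PRC1 genes passed the test. A gene passed when limma gave its brightest probe an adjusted p under 0.05 after Benjamini-Hochberg adjustment over the 23525 probes tested, and the count was 0 of 10 genes, against 20.1% of the 13648 genes tested in this way. At an unadjusted p under 0.05 the count was 2 of 10 (*Pcgf1* and *Bmi1*), against 35.7% of all genes. The other test run, a test per probe named with the alternatives in the description of processing, gave 0 too. Of all genes, 9.35% rose and 10.8% fell. Over all 23525 probes 18.3% passed, 8.56% higher and 9.78% lower. No probe of the 10 genes combined a change of over 2-fold with the test, which 5.30% of genes did (2.36% higher and 2.95% lower). The groups overlapped for all 10 genes, whereas 26.4% of genes had groups without overlap. All 14 probes were well above background on all 8 arrays. The change was below 0 for 7 genes and above 0 for 3 (with quantile normalization *Pcgf3* moved above 0), and the median was -0.08 beside -0.01 for all genes tested. For 9 of the 10 genes, all but *Cbx7*, the 95% confidence interval of the change lay within 2-fold in either direction (83.6% of all genes). The lowest bound among these 9 genes was -0.81 (*Pcgf1*) and the highest was 0.67 (*Bmi1*).

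**Figure D1:**
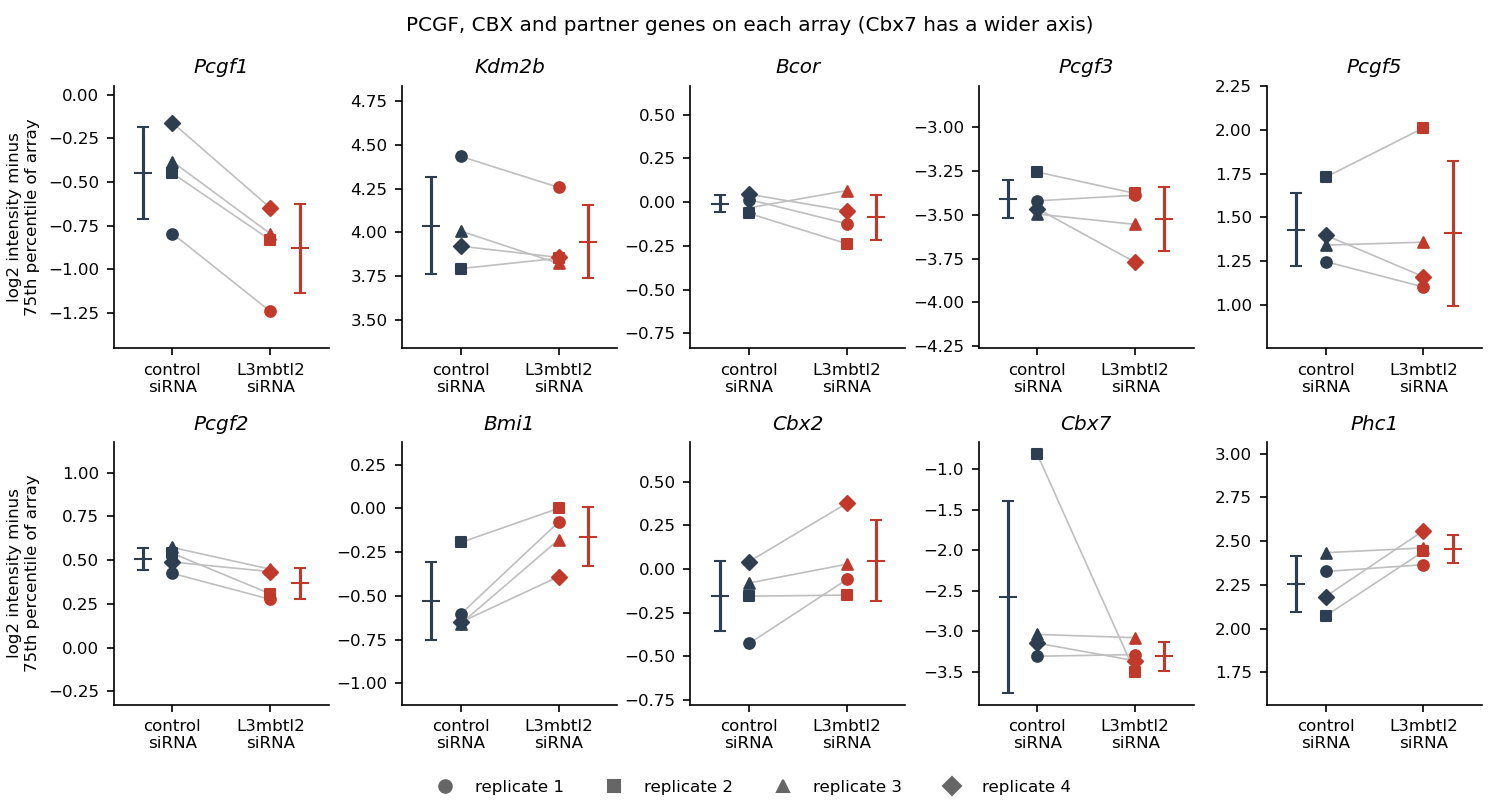
Log2 intensity minus the 75th percentile of the array for the brightest probe of each gene. Each point is an array, grey lines join arrays with the same replicate number, and bars give the mean ± SD of each group (n = 4). *Pcgf1* is lower and *Bmi1* higher in *L3mbtl2*-KD ESCs along all 4 lines, and *Cbx7* is high in control replicate 2.

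The samples share replicate numbers, and these pair the samples: deviations from the group means correlated at 0.38 to 0.58 across probes for the 4 same-numbered samples and at -0.44 to 0.25 for the 12 other combinations. With the replicate number as a block in limma, 2 of the 10 genes passed, *Pcgf1* lower and *Bmi1* higher. In that fit 46.0% of all genes passed (22.2% higher and 23.8% lower), and 42.9% of all probes, so a count of 2 of 10 does not set these genes apart. Replicates 1 and 2 of both groups lay on the first slide and replicates 3 and 4 on the second. With the slide as a block the same 2 genes passed, where 26.9% of all genes did (12.9% higher and 14.0% lower).

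**Figure D2:**
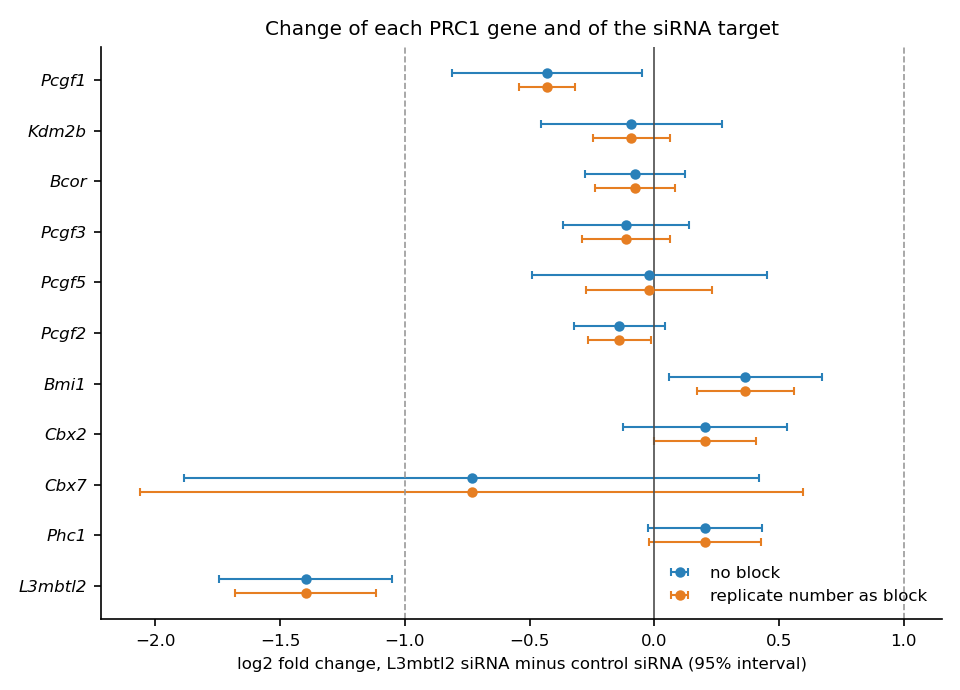
Log2 fold change of each gene with its 95% confidence interval, from limma without a block (blue) and with the replicate number as a block (orange). Dashed lines mark 2-fold. Of the 10 genes, only *Cbx7* has an interval that reaches past 2-fold, and the siRNA target *L3mbtl2* lies at -1.40.

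*Pcgf1* encodes the PCGF subunit that nucleates the KDM2B complex. Its probe (NM_197992) read -1.24, -0.83, -0.80 and -0.65 in *L3mbtl2*-KD replicates 1 to 4, and -0.80, -0.45, -0.38 and -0.16 in control replicates 1 to 4. Replicate 1 was the lowest and replicate 4 the highest of both groups, and the groups overlapped only in that *L3mbtl2*-KD replicate 4 lay above control replicate 1. The log2 fold change was -0.43 (standard error 0.17, limma adjusted p = 0.11), or 0.742-fold. Within each pair the difference was nearly the same, from -0.49 to -0.38, and with the replicate number as a block the standard error was 0.043 (limma adjusted p = 0.0029, lower in 4 of 4 pairs). With the slide as a block the adjusted p was 0.042, and within the first and second slide the difference was -0.41 and -0.45. Without control replicate 1 it was -0.55 (adjusted p = 0.047). Over all alternatives tried the change of *Pcgf1* was between -0.55 and -0.31.

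Neither partner of PCGF1 in the set passed in limma, with or without a block, and their difference from *Pcgf1* was not tested. *Kdm2b*, whose CXXC zinc finger brings the complex to unmethylated CpG islands, was at 4.26 in *L3mbtl2*-KD replicate 1 and between 3.82 and 3.86 in replicates 2 to 4, and at 4.44 in control replicate 1 and between 3.79 and 4.01 in the others. Replicate 1 was thus the highest of each group. The change was -0.09 (95% interval -0.46 to 0.27, limma adjusted p = 0.74), and 0.04 without control replicate 1. A second *Kdm2b* probe gave -0.04 (adjusted p = 0.91) and was likewise highest in replicate 1 of both groups. *Bcor*, a corepressor that binds PCGF1, had the tightest control values of the 10 genes, from -0.065 to 0.045, and lay between -0.24 and 0.066 in *L3mbtl2*-KD ESCs. Its change was -0.08 (95% interval -0.28 to 0.12, adjusted p = 0.59). For *Bcor* a change past 1.21-fold lower or 1.09-fold higher lies outside the interval.

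*Pcgf3* and *Pcgf5* encode the PCGF subunits of the remaining variant complexes. *Pcgf3* was read at an intensity of 68.2 to 90.8, where the lowest probe well above background was at 14.0 to 24.5 depending on the array. Its log2 intensity averaged -3.52 (SD 0.18) after the *L3mbtl2* siRNA and -3.41 (SD 0.11) after the control siRNA, 4 arrays each, a change of -0.11 (95% interval -0.37 to 0.14, limma adjusted p = 0.52) that became 0.013 with quantile normalization. *Pcgf5* read 1.10, 2.01, 1.36 and 1.16 in *L3mbtl2*-KD replicates 1 to 4 and 1.25, 1.73, 1.34 and 1.40 in control replicates 1 to 4. Replicate 2 stood above the rest in both groups, and a second probe showed the same order at its top, with 1.75 and 1.54 for replicate 2. The change of *Pcgf5* was -0.02 (95% interval -0.49 to 0.45, adjusted p = 0.96) and its pairs were split, 2 higher and 2 lower. The difference between *Pcgf3* and *Pcgf5*, taken on each array, changed by -0.09 between the groups, against an SD of 0.37 within *L3mbtl2*-KD ESCs and 0.13 within control ESCs.

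Among canonical subunits, *Bmi1* and *Pcgf2* are paralogues that take the same place next to RING1B. The brighter *Bmi1* probe (NM_007552) read -0.08, 0.00015, -0.18 and -0.39 in *L3mbtl2*-KD replicates 1 to 4, and -0.60, -0.19, -0.66 and -0.65 in control replicates 1 to 4. Control replicate 2 lay apart from the other controls and within the *L3mbtl2*-KD values. The log2 fold change was 0.37 (standard error 0.13, limma adjusted p = 0.095), or 1.29-fold, and all 4 pairs were higher in *L3mbtl2*-KD ESCs, by 0.20 to 0.53. With the replicate number as a block the adjusted p was 0.017, with the slide as a block 0.039, and without control replicate 2 it was 0.032 (change 0.48). Within the first and second slide the difference was 0.36 and 0.37. The second, dimmer *Bmi1* probe did not follow, with a change of -0.03 (95% interval -0.43 to 0.36, adjusted p = 0.92, and 0.77 with the replicate number as a block) and 2 pairs higher and 2 lower. The mean of both probes changed by 0.17 (adjusted p = 0.46), so the *Bmi1* result depends on the probe.

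*Pcgf2* was lower in all 4 pairs, by -0.23 to -0.055, and averaged 0.37 (SD 0.087) against 0.51 (SD 0.065) in control ESCs. Its change of -0.14 did not pass (95% interval -0.32 to 0.04, limma adjusted p = 0.26, and 0.073 with the replicate number as a block), and a second probe gave -0.07 (adjusted p = 0.57). The log2 difference of *Pcgf2* over the brighter *Bmi1* probe was therefore lower in *L3mbtl2*-KD ESCs in all 4 pairs, by -0.67, -0.43, -0.60 and -0.32 for replicates 1 to 4, with a mean of -0.51 and an SD of 0.24 and 0.22 within the groups. This difference was not tested, and it rests on the brighter *Bmi1* probe, which the dimmer one did not follow.

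*Bmi1* and *Pcgf2* are also the members of this set whose promoter holds the E-box CACGTG, the palindromic hexamer known to be bound by MAX and its partners, and their sequences are shown for that reason. Promoter windows of 250 bases before the start site were taken from RefSeq (GRCm38.p6) and matched by symbol for 8 of the 10 genes, as 14 windows. There was none for *Pcgf1* and *Cbx2*. The hexamer, which reads the same on both strands, was found in 2 of the 14 windows and in 6.02% of all 32851 windows. The E2F element TTTCCCGC, searched on both strands, was in 0 of the 14 windows and in 0.895% of all windows. The *Bmi1* window lies at chr2:18676768-18677017 on the plus strand and the *Pcgf2* window at chr11:97699649-97699898 on the minus strand. Both are written 5′ to 3′ along the gene, with the E-box in capitals.
Bmi1: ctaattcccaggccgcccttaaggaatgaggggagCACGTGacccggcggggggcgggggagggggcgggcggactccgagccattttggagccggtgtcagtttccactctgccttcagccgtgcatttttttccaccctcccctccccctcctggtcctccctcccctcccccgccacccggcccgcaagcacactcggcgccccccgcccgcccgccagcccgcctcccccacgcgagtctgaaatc
Pcgf2: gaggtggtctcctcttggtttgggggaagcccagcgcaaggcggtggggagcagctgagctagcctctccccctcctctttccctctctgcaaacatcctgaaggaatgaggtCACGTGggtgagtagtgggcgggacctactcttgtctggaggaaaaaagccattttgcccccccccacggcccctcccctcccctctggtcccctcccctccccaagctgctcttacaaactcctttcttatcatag
The E-box ends 209 bases before the start site in *Bmi1* and 131 bases before it in *Pcgf2*. The *Bmi1* window holds 21 CpG dinucleotides and the *Pcgf2* window 5, where the median of all windows was 6. These matches describe the letters of the windows, and binding was not analysed here.

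The genes most like *Bmi1* across the 8 arrays were found by the root mean square difference of log2 intensities. Values were centred on the mean of each probe. *Bmi1* was taken because it had the lowest p of the set in limma without a block. With the replicate number as a block, *Pcgf1* had the lowest (limma unadjusted p = 0.00019, and 0.0047 for *Bmi1*). Among 13602 other genes the nearest were *Dcbld1* (difference 0.068), *Rimklb* (0.077) and *Tmlhe* (0.080). Their changes were 0.34, 0.33 and 0.30, and none of these 3 passed (limma adjusted p = 0.089, 0.14 and 0.11).

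The CBX proteins bring canonical PRC1 to H3K27me3. *Cbx7* (NM_144811) read -3.29, -3.51, -3.08 and -3.36 in *L3mbtl2*-KD replicates 1 to 4, and -3.31, -0.81, -3.04 and -3.14 in control replicates 1 to 4. Control replicate 2 was far above all other arrays, which lay between -3.51 and -3.04. The change was -0.73 (95% interval -1.88 to 0.42, limma adjusted p = 0.35), and without control replicate 2 it was -0.15 (adjusted p = 0.49). The pair differences were 0.02, -2.69, -0.04 and -0.22, and within the first and second slide the change was -1.34 and -0.13. *Cbx7* had a single probe, so the value of control replicate 2 has no second reading. *Cbx2* read -0.06, -0.15, 0.03 and 0.38 in *L3mbtl2*-KD replicates 1 to 4, and -0.43, -0.16, -0.08 and 0.04 in control replicates 1 to 4. All 4 pairs were higher in *L3mbtl2*-KD ESCs, by 0.0063 to 0.37, and the change of 0.20 did not pass (95% interval -0.12 to 0.53, adjusted p = 0.36, and 0.095 with the replicate number as a block). It was 0.094 without *L3mbtl2*-KD replicate 4 and 0.11 without control replicate 1. The log2 difference of *Cbx2* over *Cbx7* changed by 0.94, or by 0.35 without control replicate 2.

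*Phc1*, which encodes a polyhomeotic protein whose SAM domain oligomerises, averaged 2.46 (SD 0.080) against 2.25 (SD 0.16) in control ESCs. The change of 0.20 did not pass (95% interval -0.025 to 0.43, limma adjusted p = 0.19, and 0.12 with the replicate number as a block). The pairs fell into 2 kinds: replicates 2 and 4 differed by 0.37 and 0.38, replicates 1 and 3 by 0.04 and 0.03. Since each slide held a pair of both kinds, the change was 0.20 on either slide alone.

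The spread of each gene was split by replicate number and by siRNA group. The numbers have 3 degrees of freedom and the groups 1, so without any effect their shares of the sum of squares would average 42.9% and 14.3%. On average over the 10 genes, 53.8% of the sum of squares over the 8 arrays lay between replicate numbers, 28.1% between the groups and 18.1% in neither. Over all genes tested with values on all arrays (13603 genes) the means were 50.7%, 36.7% and 12.5%, so the share between numbers was close to that of the whole array. Per degree of freedom the means of the 10 genes were 17.9% for the numbers and 28.1% for the groups. *Kdm2b* (90.3%) and *Pcgf5* (88.0%) had the highest shares between numbers. *Bmi1* (53.2%), *Pcgf2* (52.4%), *Pcgf1* (48.2%) and *Phc1* (46.4%) had the highest shares between groups, and *L3mbtl2* had 92.5%. These are shares of the brightest probe. The second probes of *Bmi1* and *Pcgf2* had 0.53% and 32.8% between groups.

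**Figure D3:**
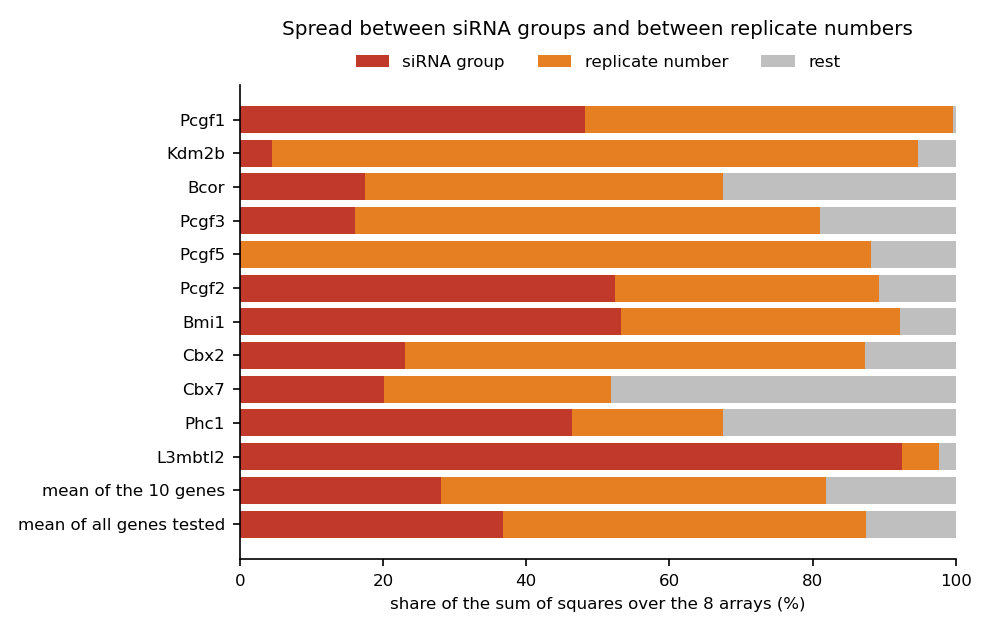
Share of the sum of squares of log2 intensity over the 8 arrays that lies between siRNA groups, between replicate numbers and in neither, for the brightest probe of each gene, for the siRNA target and as the mean of the 10 genes and of all genes tested. The orange part is longest in *Kdm2b* and *Pcgf5*, and the red part in *L3mbtl2*.

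The other genes of PRC1 complexes were taken from lists by role, *L3mbtl2* itself left out. Of 30 listed genes 28 had a named probe and were tested, *Scml2* and *Auts2* having none. In limma, 3 of the 28 rose and 0 fell (against 9.35% and 10.8% of all genes), and none of the 3 reached 2-fold. The median change was 0.05 beside -0.01 for all genes tested. With the replicate number as a block, 10 of the 28 passed, 8 higher and 2 lower, and 46.0% of all genes did. In the shared core, *Yaf2* rose, the paralogue of *Rybp* that can take its place beside RING1B. It was between 0.96 and 1.14 in *L3mbtl2*-KD ESCs and between 0.44 and 0.75 in control ESCs, a change of 0.41 (standard error 0.093, adjusted p = 0.018). This call ended without *L3mbtl2*-KD replicate 4 (adjusted p = 0.0504) and without control replicate 3 (adjusted p = 0.055), and without the filter on dim probes (adjusted p = 0.051), and a second *Yaf2* probe changed by 0.22 (adjusted p = 0.10). *Rybp* (-0.12), *Rnf2*, which encodes RING1B (-0.06), and *Ring1* (-0.70, adjusted p = 0.18) did not pass. For *Ring1*, control replicate 3 was at -1.05 and the other controls between -2.65 and -2.48.

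By complex, 0 of 6 other canonical genes passed in limma with neither a block nor an intensity trend, with changes from -0.33 (*Phc3*) to 0.16 (*Scmh1*). Of all genes, 20.1% passed without a block and 46.0% with the replicate number as a block. *Cbx6* (-0.29, adjusted p = 0.059) passed with the replicate number as a block (adjusted p = 0.011) and with the slide as a block (adjusted p = 0.023). A canonical gene also fell with the intensity trend, with normexp and with quantile normalization (1 of 6 each). Of the PCGF1 complex partners 0 of 3 passed, *Bcorl1* (0.28), *Skp1* (0.19) and *Usp7* (0.10), and with the block the first 2 did (adjusted p = 0.013 and 0.039). In the PCGF3 and PCGF5 complexes 0 of 6 passed, and with the block *Dcaf7* (0.37, adjusted p = 0.0059) and the casein kinase 2 subunit *Csnk2b* (0.22, adjusted p = 0.022) did. A pair of further *Dcaf7* probes changed by -0.013 and 0.19 (limma adjusted p = 0.96 and 0.23 without the block). The probe used did not pass without the block either (limma adjusted p = 0.094). In the PCGF6 complex, the home of L3MBTL2, 2 of 9 genes rose and 0 fell. This share of 22.2% that passed was near the 20.1% of all genes. *E2f6*, a repressive E2F, was between 1.74 and 2.15 in *L3mbtl2*-KD ESCs and between 1.28 and 1.56 in control ESCs (change 0.56, standard error 0.11, adjusted p = 0.011). *Hdac2*, a histone deacetylase, was between -2.25 and -2.11 and between -2.64 and -2.54 (change 0.36, standard error 0.075, adjusted p = 0.013). With the block *Hdac1* (0.27) and *Tfdp1* (-0.34) passed as well (adjusted p = 0.023 and 0.012). *Pcgf6* itself changed by 0.07 (95% interval -0.11 to 0.25, adjusted p = 0.58). At an unadjusted p under 0.05 the count was 7 of the 28 genes, a share of 25% beside 35.7% of all genes.

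**Figure D4:**
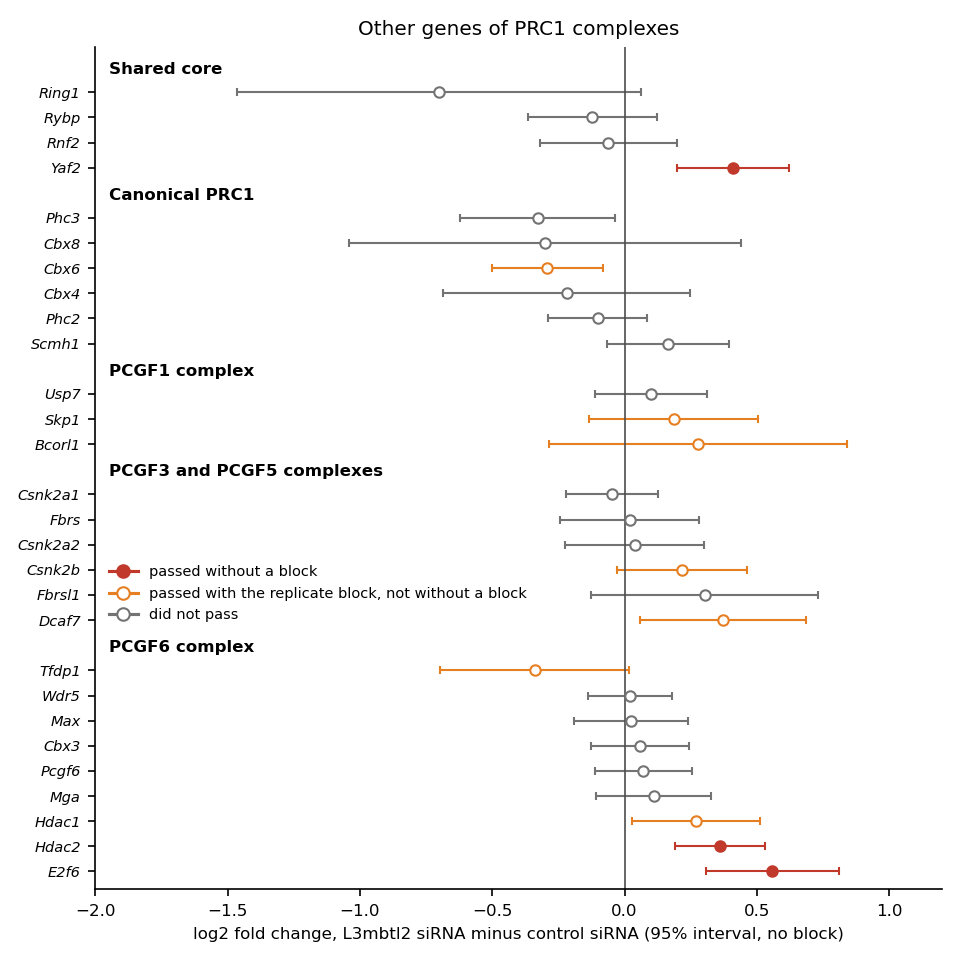
Log2 fold change with its 95% confidence interval for 28 other genes of PRC1 complexes, by role, from limma without a block. Filled red points passed (*Yaf2*, *E2f6* and *Hdac2*), open orange points passed with the replicate number as a block and not without a block, and open grey points passed in neither fit.

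Markers of other cells moved with the siRNA groups, and fewer cells of a type cannot be told apart from less RNA per cell in these bulk samples. Of 14 feeder fibroblast genes 11 were tested, and 10 fell while *Loxl1* rose (10.8% and 9.35% of all genes did). The call of *Col6a1* (adjusted p = 0.047) was lost in 6 of the 8 fits with an array left out and under other settings. The count that fell was 8 to 10 by setting, and 0 within the first slide alone. *Col3a1* and *Dcn* were not well above background on any *L3mbtl2*-KD array and were at least 7.92-fold and 12.3-fold lower there, a bound that sets the control mean against the lowest signal well above background on each *L3mbtl2*-KD array, or the signal of the probe where higher. *Col3a1* and *Dcn* thus passed the filter on dim probes only through the control arrays. *Postn* and *Lum* were not well above background on any array. The summed intensity of the list, in units of the 75th percentile of the array, was 23.9, 32.7, 28.0 and 22.8 in *L3mbtl2*-KD replicates 1 to 4 and 48.3, 55.5, 52.0 and 47.6 in control replicates 1 to 4, with *Fn1* the brightest. *Fn1* was at a log2 intensity of 4.37 to 4.93 in *L3mbtl2*-KD ESCs and 5.32 to 5.62 in control ESCs. No other gene of the list exceeded 0.91 (*Acta2*, control replicate 4) on any array, so this sum is mostly *Fn1*. Of 7 primitive endoderm genes 5 fell (*Gata4*, *Sox17*, *Dab2*, *Foxa2* and *Pdgfra*), where 10.8% of all genes fell. *Sox17*, *Dab2* and *Foxa2* passed the filter on dim probes only through the control arrays. They were well above background on 3, 1 and 0 of the 4 *L3mbtl2*-KD arrays. The list summed to 1.09, 1.91, 1.44 and 1.17 in *L3mbtl2*-KD ESCs and 1.85, 2.20, 1.64 and 2.05 in control ESCs, with *Gata6* the brightest. *Foxa2* was not well above background in *L3mbtl2*-KD ESCs (at least 2.48-fold lower). The count that fell was 4 with normexp background correction (*Foxa2* adjusted p = 0.052), 2 with probes above background on all arrays, 6 with either block and 0 within the first slide alone. Of 5 trophectoderm genes tested out of 6, 0 passed (20.1% of all genes did). With the replicate number as a block 2 passed (46.0% of all genes did). The list summed to 2.12, 4.34, 3.79 and 2.31 in *L3mbtl2*-KD ESCs and 3.18, 4.63, 4.48 and 3.99 in control ESCs, with *Krt18* the brightest. *Elf5* was not well above background on any array.

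Of 9 ESC markers, all tested, *Klf4* fell (-0.70, limma adjusted p = 0.027) and the others did not pass, where 20.1% of all genes passed. The call of *Klf4* ended without *L3mbtl2*-KD replicate 3 or 4 or control replicate 3 (adjusted p = 0.068, 0.071 and 0.069) and without the filter on dim probes (adjusted p = 0.067), and it did not pass within either slide alone (adjusted p = 0.36 and 0.052). With the replicate number as a block *Tdgf1* fell (-0.28, adjusted p = 0.0080) and *Dppa5a* rose (0.17, adjusted p = 0.032) beside *Klf4*. In that fit 46.0% of all genes passed. The 9 markers summed to 305.3, 327.3, 291.9 and 313.9 in *L3mbtl2*-KD ESCs and 308.6, 316.5, 301.9 and 298.4 in control ESCs, with *Dppa5a* the brightest. Over both groups *Dppa5a* was at a log2 intensity of 7.0 to 7.5 and *Nanog* at -4.57 to -1.38. The sum therefore cannot show a change of dim markers. Of the late germ cell genes *Ddx4*, *Dazl*, *Stra8* and *Sycp3*, the first 3 rose (9.35% of all genes did). Their sum was 110.0, 93.3, 78.3 and 99.7 in *L3mbtl2*-KD ESCs and 47.1, 32.5, 26.9 and 33.3 in control ESCs, with *Stra8* the brightest. The reporter used for sorting is that of *Ddx4*. Replicate 2 had the highest sum of the fibroblast, primitive endoderm, trophectoderm and ESC lists in both groups. For the fibroblast list this follows *Fn1*, at 4.93 and 5.62 in replicate 2 of *L3mbtl2*-KD and control ESCs. Other fibroblast genes, such as *Col1a2* and *Acta2*, were highest in control replicate 4, while *Col1a1* and *Col3a1* were highest in control replicate 2. Replicate 2 was also highest for *Pcgf5* and *Bmi1* in both groups. Replicate 1 had the highest germ cell sum and the highest *Kdm2b* and the lowest *Pcgf1* in both groups. The part of these cell types in the values of the PRC1 genes was not tested.

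**Figure D5:**
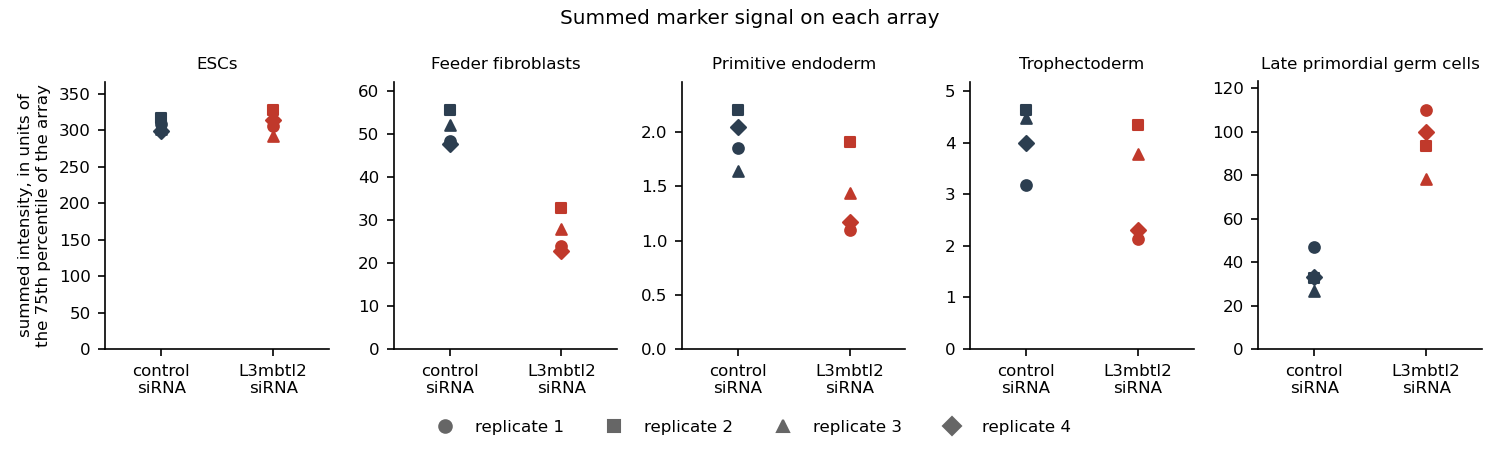
Summed intensity of 5 marker lists on each array, in units of the 75th percentile of the array, by siRNA group, with a symbol for each replicate number. The fibroblast sum, which is mostly *Fn1*, is 22.8 to 32.7 in *L3mbtl2*-KD ESCs and 47.6 to 55.5 in control ESCs. The ESC sums, with *Dppa5a* the brightest gene, overlap between the groups.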

How the data were processed

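RNA of 4 *L3mbtl2*-KD and 4 control samples was measured on one-colour arrays. The authors deposited the intensity of each spot from Feature Extraction 10.7.3.1, background-subtracted but not normalized between arrays, and a table of log2 values after a 75 percentile shift in GeneSpring, centred on each probe in a way the files do not state. Against the scanner values centred on each probe, the correlation of this table was at least 0.999 on each array. Here, log2 intensity minus the 75th percentile of its array (791 to 1038) was used. Control spots and outlier flags were left out and spots of a probe averaged. No spot was saturated. Of 39429 probes, 26055 were named through RefSeq accessions (GRCm38.p6). A probe was tested (23525 in all, 85 of them without a value on 1 or more arrays) if each array of either group had it well above background. Per array 59.5 to 66.6% of spots were well above background, and the number of arrays limits the precision.

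Groups came from the labels and were compared in R 4.3.3 with limma 3.58.1 (lmFit, eBayes). P-values took a Benjamini-Hochberg adjustment over the whole set of tested probes. The code was tested on simulated data. The brightest probe by mean over the 8 arrays stands for a gene. Named genes are the 10 members, *L3mbtl2* and each listed gene that passed. The 3 genes nearest to the member with the lowest p in limma without a block were added, since no member passed there. Genes named beyond this rule were chosen after their values were seen. The members and lists were chosen with earlier results of these data known, so no p-value was adjusted over them. Replicate numbers were taken to pair the samples from the correlations in the report. Alternatives were normexp (offset 50, on median in place of mean spot intensities), quantile normalization, the authors' table, other filters, an intensity trend, a block for the slide or the replicate number, one-way ANOVA, the mean of a gene's probes, each slide alone and leaving out each array. Only this series was analysed here.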

Additional observations from a re-analysis of the deposited data

Results flagged for a closer look

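Single samples lay far from the other 3 of their group, by Dixon's ratio of the gap to the range, in 6 of 40 groups of 4 examined, where chance gives about 2. The groups were those of the 14 probes, of *L3mbtl2* and of listed genes outside the cell type markers that passed. For *Cbx7*, control replicate 2 was at -0.81 and the other controls averaged -3.16 (ratio 0.892). The same sample was high for *Bmi1*, at -0.19 beside -0.64 (ratio 0.881), and for the second *Bmi1* probe, at -2.30 beside -2.95 (ratio 0.859). For *Kdm2b*, *L3mbtl2*-KD replicate 1 was at 4.26 beside 3.84 (ratio 0.921). *Yaf2* was at 1.14 in *L3mbtl2*-KD replicate 4 beside 0.97 (ratio 0.856). *Hdac2* was at -2.64 in control replicate 3 beside -2.55 (ratio 0.877). *Ring1*, chosen after its values were seen and so left out of these counts, was at -1.05 in the same sample beside -2.59 (ratio 0.894). Without control replicate 2, *Cbx7* changed by -0.15 in place of -0.73 and *Bmi1* by 0.48 in place of 0.37. The chance count takes no account of the pairs. For *Kdm2b*, both *Bmi1* probes and *Yaf2*, the sample with the same number was also the highest of the other group. For *Cbx7* and *Hdac2* the sample with the same number lay at the opposite end of the other group. The cause of these single values was not tested.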

How the results depend on the processing

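Each result was recomputed under 20 alternatives (19 for the count of all probes). No member passed both 2-fold and the test under any of them. The count of members that passed, 0, became 2 with the replicate block and 2 with the slide block (*Pcgf1* and *Bmi1*), and 0 to 1 with each array left out. It was 0 with the other background correction, scalings, filters and tests, one-way ANOVA included, where 1 or 2 members had an unadjusted p under 0.05, and 0 within either slide (0 and 2 at an unadjusted p under 0.05). The replicate block changed no other member's call. The count of other PRC1 genes, 3, became 4 with the intensity trend, the mean of probes, normexp or quantile normalization, 2 without the filter, 10 with the replicate block, 5 with the slide block, 0 within either slide (3 and 7 at an unadjusted p under 0.05) and 2 to 4 with each array left out. *L3mbtl2* missed the threshold only within the first slide (-1.40, adjusted p = 0.098), where limma passed 0 of 23525 probes and 3452 had an unadjusted p under 0.05. The count of all probes, 4314, was 10091 with the replicate block, 2689 without a filter, 2444 within the second slide and 2548 to 4303 with each array left out. Each slide alone holds 2 samples a group. By one-way ANOVA *Klf4* (adjusted p = 0.064) and *Col6a1* (adjusted p = 0.11) did not pass.

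Changes near 0 turned sign: *Bcor* to 0.0019 within the second slide, *Pcgf3* to 0.013 with quantile normalization, *Pcgf5* to 0.069 within the first slide, and, with each array left out, *Pcgf5* (-0.22 to 0.081) and *Kdm2b* (-0.20 to 0.040). The other 6 members kept their sign under all alternatives. *Cbx7* ranged from -1.34 to -0.13, and normexp gave -0.43. The cause of these shifts was not tested.

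Dim probes limit *Pcgf3* and *Cbx7*, whose lowest intensities were 68.2 and 69.6. Each group has 4 arrays, control and *L3mbtl2*-KD arrays took different positions on the slide, RNA and not protein was measured, and the sorting of control cells is not stated.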

Other observations

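Genes with a part in the removal of ubiquitin from H2A, which opposes PRC1, were tested as a list of 5 (*Bap1*, *Asxl1*, *Asxl2*, *Usp16* and *Mysm1*). Of these, 0 passed in limma without a block (20.1% of all genes did), while 1 passed with the replicate number as a block (46.0% of all genes did). *Usp16* was the gene where the probe decided: the brighter probe changed by 0.43 (adjusted p = 0.11, and 0.0035 with the block, higher in 4 of 4 pairs) and a second probe by 0.54 (adjusted p = 0.019). The other 4 genes changed by -0.17 (*Mysm1*) to 0.15 (*Bap1*). The median of the list was 0.04.

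Among single genes known as Polycomb targets in ESCs, *Gata4*, a primitive endoderm regulator, fell (-0.92, standard error 0.15, limma adjusted p = 0.0052) and was lower in 4 of 4 pairs. It also belongs to the primitive endoderm list, whose sum was lower in *L3mbtl2*-KD ESCs in each pair. The classical PRC1 target *Cdkn2a* changed by 0.11 (95% interval -0.29 to 0.51, adjusted p = 0.71) and *Cdkn2b* by -0.31 (adjusted p = 0.60, and 0.042 with the replicate number as a block). *Pax6* was not tested because its probe did not reach the filter on dim probes.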
